A study of Arabidopsis thaliana with 9 samples.

Results

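The genes described here encode proteins of the cytosolic ribosome of Arabidopsis thaliana. They were taken by gene identifier from a list of 51 loci that names ribosomal protein genes and sets no threshold on a measured value, though it was drawn up with earlier results of these data known. All 51 were among the 33473 genes of the deposited expression table. The list holds 27 genes of the small (40S) subunit, which belong to 16 protein families, and 24 genes of the large (60S) subunit, which also belong to 16 families. It covers 14 families by more than 1 gene copy and the other 18 by a single copy. For most of these loci the RefSeq product names a ribosomal protein, at times by its bacterial relative, and a few carry an older or general name. The family names used here are those of the cytosolic ribosome.

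RNA had been sequenced from shoots of wild-type Col-0 plants that were 21 days old, to follow transcripts within seconds of a light increase. All plants were raised at 23 °C in low light that was never switched off, at 50 µmol m-2 s-1. The control group was given 0 s of high light, and the treated groups were moved to 1000 µmol m-2 s-1 at 21 °C for 20 s or for 60 s before the pots were plunged into liquid nitrogen. Each exposure had 3 pools, or 9 samples in all, and a pool held at least 30 plants. The table gives 1 value per gene and exposure, in FPKM, a fragment count divided by transcript length and library size. There is therefore no replicate error, no test was possible, and every difference below describes 3 deposited columns. The depth behind the values is unknown. Whole shoots mix many cell types, and in such samples fewer cells of a type and less RNA per cell cannot be told apart.

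Every ribosome needs a single copy of nearly all of its proteins. Arabidopsis encodes each of these proteins in a small family of similar genes that are all over the genome. The genes are among the most active of a growing plant, and their transcripts are known in plants for strong control at translation, where dark and stress move them off polysomes and light and sugar bring them back. In plants the target of rapamycin (TOR) kinase ties ribosome production to sugar and light, partly through the S6 kinases that phosphorylate the small subunit protein RPS6. Plant ribosomal protein promoters are known for a pair of short elements, the telo-box, which resembles the plant telomere repeat, and site II, which TCP transcription factors bind.

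Promoters were read by the RefSeq gene starts on the TAIR10.1 genome, as 250 bases before and 50 bases after the annotated start of each gene. Only 1 of the 51 loci as deposited had the same ends as its RefSeq gene. Positions relative to the start therefore depend on the annotation used. The telo-box was searched as AACCCTA and site II as TGGGCC or TGGGCT, on both strands, with overlapping matches on opposite strands counted separately. Of the 51 windows 30 (58.8%) held a telo-box and 39 (76.5%) held site II. Over 13729 protein-coding genes that average 5 FPKM or more, the shares were 7.82% and 28.1%. Both elements stood together in 25 member windows (49%), against 3.53% of the same 13729 windows. Neither was found in 7 member windows (13.7%), against 67.6%. A further plant element, the G-box CACGTG, which light-regulated promoters are known for, occurred in 3 member windows (5.88%) and in 9.13% of the 13729.

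The promoters below belong to the highest and lowest copies of the 2 families whose copies differed most in level. They show the 250 bases before the annotated start on the gene's own strand, in TAIR10.1, and capitals mark complete telo-box and site II matches. The abundant RPS9 copy is at chr5:4936430-4936679 (minus strand) and the scarce RPS9 copy at chr5:15949660-15949909 (plus strand). The abundant RPL10 copy is at chr1:4887864-4888113 (plus strand) and the scarce one at chr1:9321400-9321649 (plus strand).
RPS9 AT5G15200: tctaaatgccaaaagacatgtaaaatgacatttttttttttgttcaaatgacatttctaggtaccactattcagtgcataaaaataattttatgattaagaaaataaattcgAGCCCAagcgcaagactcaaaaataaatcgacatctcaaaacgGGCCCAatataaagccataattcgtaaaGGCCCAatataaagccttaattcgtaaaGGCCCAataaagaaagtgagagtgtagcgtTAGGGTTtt
RPS9 AT5G39850: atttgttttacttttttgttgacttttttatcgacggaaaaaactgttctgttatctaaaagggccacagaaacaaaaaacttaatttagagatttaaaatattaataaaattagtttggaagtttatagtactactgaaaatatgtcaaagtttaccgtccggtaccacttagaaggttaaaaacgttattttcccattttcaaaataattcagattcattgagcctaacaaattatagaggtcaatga
RPL10 AT1G14320: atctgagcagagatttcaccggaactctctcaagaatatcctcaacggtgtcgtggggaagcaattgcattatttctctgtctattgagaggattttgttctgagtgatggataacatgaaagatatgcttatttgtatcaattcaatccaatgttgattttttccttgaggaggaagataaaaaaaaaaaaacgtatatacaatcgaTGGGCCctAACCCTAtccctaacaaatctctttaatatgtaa
RPL10 AT1G26910: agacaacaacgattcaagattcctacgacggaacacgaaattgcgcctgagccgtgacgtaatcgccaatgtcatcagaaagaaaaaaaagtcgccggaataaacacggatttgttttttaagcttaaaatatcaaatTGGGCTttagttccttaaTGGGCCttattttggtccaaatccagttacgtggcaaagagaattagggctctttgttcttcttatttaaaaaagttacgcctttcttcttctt
The abundant RPS9 copy had 1 telo-box ending just before the start and 4 site II matches upstream of it. The scarce RPS9 copy had no telo-box, and its 2 site II matches lay 4 and 11 bases past the start, outside the stretch printed. In the RPL10 pair the abundant copy had a telo-box at position -34 and 2 site II matches, at -42 and, past the start, at 17. The scarce copy also had 2 site II matches, at -112 and -94, and no telo-box. A match is a run of letters and not a shown binding site.

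Across all members the elements sat in different places. The 36 telo-box matches had a median position 2 bases after the annotated start, and 19 of them (52.8%) began at or after it. The 105 site II matches had a median position of -49 bases, and 87 of them began within the 150 bases before the start. The levels of members grouped by element content overlapped, and the difference between the groups was not tested. Members with both elements had a median level of 287 FPKM (mean over exposures, n = 25 genes), those with a telo-box alone 290 FPKM (n = 5), those with site II alone 331 FPKM (n = 14) and those with neither 211 FPKM (n = 7). The lowest mean levels in these groups were 74.7, 173, 6.89 and 89.1 FPKM in the same order. Large subunit genes such as RPL3 (444 FPKM) were abundant without a telo-box, and RPL23a AT2G39460 (376 FPKM) had neither element.

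**Figure D1:**
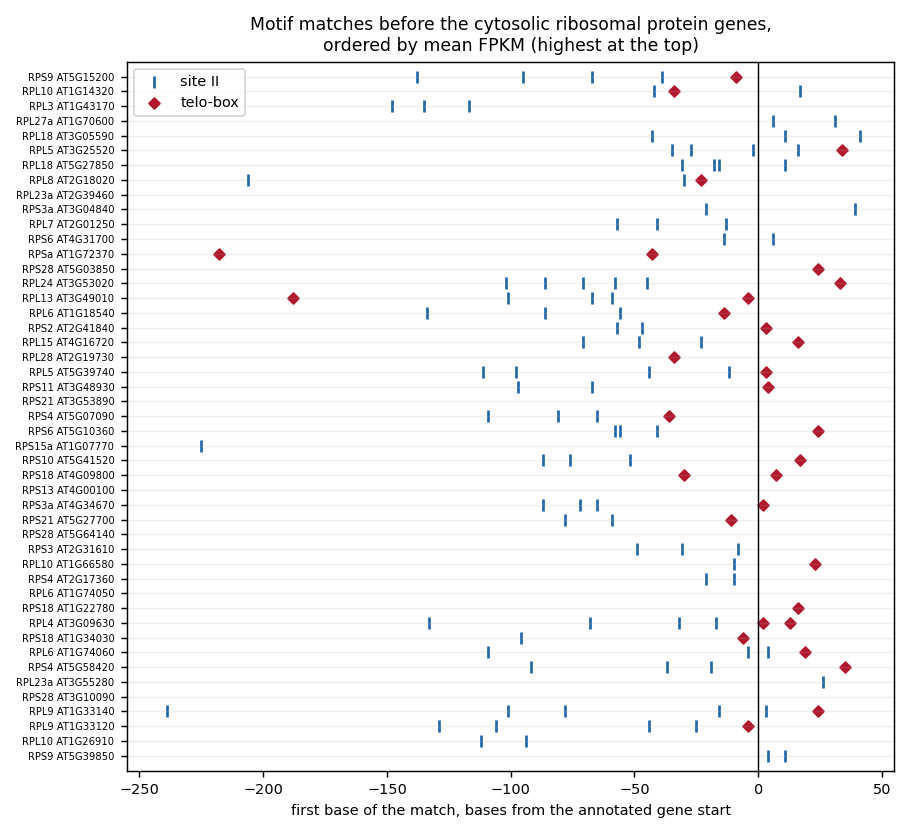
Positions of telo-box (diamonds) and site II (bars) matches on the x axis, in bases from the annotated gene start, for 47 of the 51 genes on the y axis, ordered by mean FPKM with the highest at the top. Site II matches lie mostly within 150 bases before the start, telo-boxes gather around the start, and 6 rows are empty.

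All 51 genes were expressed at every exposure, and all averaged 5 FPKM or more. At 0 s the levels ran from 6.42 to 634 FPKM with a median of 288 FPKM. The medians at 20 and 60 s were 283 and 270 FPKM. By mean level 46 members were at or above 100 FPKM and 5 were under it. None was among the 100 most abundant genes of the table, 3 were among the top 200, 32 (62.7%) among the top 500 and 45 among the top 1000. The middle 50% of members lay between 185 and 344 FPKM at 0 s. The 4 mesophyll markers set beside them, among them the Rubisco small subunit gene RBCS1A, summed to 25200, 24100 and 25100 FPKM at 0, 20 and 60 s. The order of the members by level was almost the same in each column, with Spearman correlations of 0.992 to 0.996 over the 51 genes, which share the same libraries.

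Among the abundant small subunit genes RPS9 (AT5G15200), whose protein in yeast lines the mRNA entry channel and affects decoding accuracy, had 540, 533 and 519 FPKM at 0, 20 and 60 s. RPS3a (AT3G04840), near the mRNA exit in yeast and mammals, had 378, 370 and 340 FPKM. In both the 60 s value was the lowest. The lowest small subunit genes were copies of families with a more abundant sister. RPS9 AT5G39850 had 6.42, 7.35 and 6.9 FPKM, and the RPS28 copy AT3G10090 had 87.1, 88.2 and 91.9 FPKM. In neither of these scarce copies was the 60 s value the lowest.

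Among large subunit genes RPL10 (AT1G14320, SAC52), a protein that joins the subunit late in its assembly and sits close to the tRNAs, was highest, with 496, 496 and 457 FPKM. RPL3 (AT1G43170), which reaches the peptidyl transferase centre, had 457, 446 and 428 FPKM. RPL27a (AT1G70600), a conserved core protein of the subunit, had 455, 418 and 395 FPKM. The 60 s value was again the lowest of each. The lowest were RPL10B (AT1G26910) with 16.6, 14.8 and 14.7 FPKM and the RPL9 copies AT1G33120, with 76.8, 75.1 and 72.1 FPKM, and AT1G33140 (PGY2), with 82.7, 83.9 and 73.1 FPKM. PGY2 is known for its role in leaf polarity, through mutants named PIGGYBACK. RPL4 (AT3G09630), which lines the exit tunnel for the growing peptide, was in the lower part of the subunit too, with 165, 163 and 156 FPKM.

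**Figure D2:**
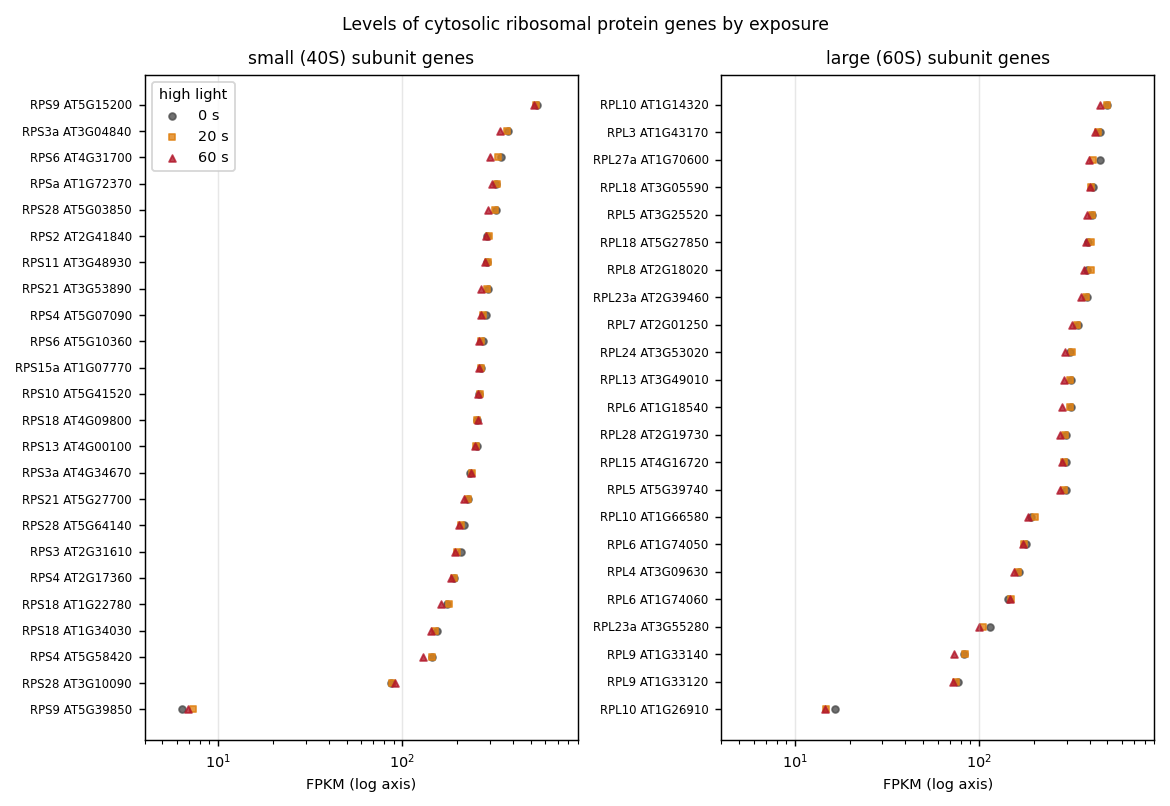
FPKM on a log axis at 0 s (circles), 20 s (squares) and 60 s (triangles) of high light for 24 small subunit genes (left) and 23 large subunit genes (right), with 1 deposited value per point and no error. The 3 points of a gene nearly coincide, the triangle is most often the leftmost, and RPS9 AT5G39850 and RPL10 AT1G26910 stand far below the rest.

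After 20 s of high light the levels of the ribosomal protein genes were close to those of the control. The ratio of 2 exposures is given as log2((x + 1)/(y + 1)) of their FPKM, which slightly understates the differences of low genes. Its median over the 51 members was -0.01 for 20 s against 0 s, and 33 members (64.7%) were lower and 18 higher. Over all 13946 genes that average 5 FPKM or more, here called all genes, 51.5% were lower and 48.5% higher, and the median was 0.00. Scaling moved this split: 40 members (78.4%) were lower when the columns were given the same FPKM sum, with 58.4% of all genes, and 27 (52.9%) after quantile normalization, with 57.2% of all genes. No member was past 1.2-fold in either direction, against 6.92% of all genes higher and 3.28% lower. The members were close together, with the middle 50% of ratios spanning 0.05, against 0.16 over all genes. Among the 1354 genes averaging 100 FPKM or more, 60.3% were lower, near the share of the members. Their median was -0.02, and the middle 50% of their ratios spanned 0.13.

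RPS9 AT5G39850 and RPL10B, the members of lowest level, had the widest ratios at 20 s. RPS9 AT5G39850 had the highest ratio, 0.17, and RPL10B the lowest, -0.16, at the levels given above. The RPL9 copies came next in level and had -0.03 (AT1G33120) and 0.02 (PGY2). RPL27a AT1G70600 had -0.12 and RPL23aB (AT3G55280) had -0.11, the latter with 115, 106 and 100 FPKM. RPL23a is the protein at the exit of the peptide tunnel, where the signal recognition particle docks in yeast and mammals. RPS3 (AT2G31610), a protein of the mRNA entry channel, had -0.07, with 210, 200 and 194 FPKM. On the higher side RPL8 (AT2G18020), next to the peptidyl transferase centre, had 0.07, with 389, 408 and 372 FPKM. The RPL10 copy AT1G66580 (SAG24), first described as a senescence-associated gene, had 0.06, with 193, 201 and 185 FPKM. RPL18 AT5G27850 had 0.05, with 393, 406 and 382 FPKM, and RPS18A (AT1G22780, PFL), known for the pointed first leaves of its mutant, had 0.04, with 176, 181 and 163 FPKM. The last 4 were highest at 20 s and lowest at 60 s.

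After 60 s most of the ribosomal protein genes were slightly lower than in the control. The sum over the 51 members was 14065 FPKM at 0 s, 13962 at 20 s and 13283 at 60 s, which is -0.733% and -5.56% from the control. The median ratio of 60 s against 0 s was -0.08, and 45 members (88.2%) were lower and 6 higher, against 45.4% of all genes lower, 54.6% higher and a median of 0.01. Among the 1354 genes averaging 100 FPKM or more, where most members lie, 53.8% were lower and the median was -0.01. Scaling moved these splits. With the same FPKM sum in each column 49 members (96.1%) and 64.7% of all genes were lower, with medians of -0.15 and -0.05, and after quantile normalization 45 members (88.2%) and 54.3% of all genes were lower. The differences were small: the deposited member ratios ran from -0.20 to 0.09, and none was past 1.2-fold, against 7.83% of all genes higher and 3.92% lower. Both comparisons with the control use the same 0 s column, so they are set side by side only.

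The same side was seen in both subunits. Of 27 small subunit genes 22 were lower at 60 s than at 0 s, with a median ratio of -0.07, and their sum was -4.8% from the control. Of 24 large subunit genes 23 were lower, with a median of -0.09 and a sum of -6.33%. Set against 20 s, which shares its columns with the comparisons above, 60 s was lower in 48 of 51 members (94.1%), with a median of -0.07, against 42.4% of all genes lower, 57.6% higher and a median of 0.02. None was past 1.2-fold, against 5.03% of all genes higher and 5.47% lower. All 24 large subunit genes and 24 of the 27 small subunit genes were on that side, and RPS18C and the RPS28 copy AT3G10090 were among the exceptions. The 60 s value was the lowest of the 3 in 45 members (88.2%), against 28.8% of all genes. The levels went down in the order 0, 20 and 60 s in 31 members (60.8%), against 15.4% of all genes. In 17 members (33.3%) the 20 s value was the highest, against 27.1% of all genes. Among the 1354 genes averaging 100 FPKM or more these shares were 36.3%, 20.2% and 25.1% in the same order.

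**Figure D3:**
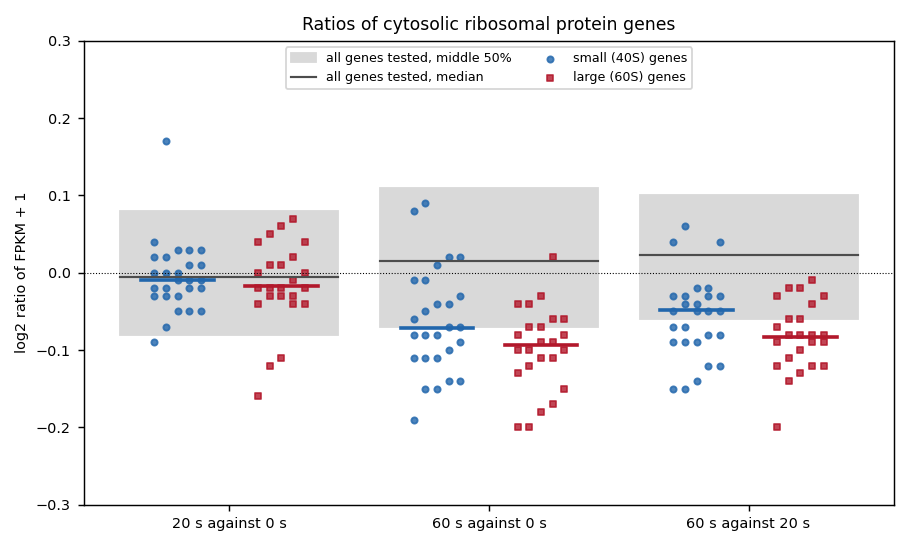
The log2 ratio of FPKM + 1 on the y axis for the 3 comparisons, with 1 point per gene for small subunit (circles) and large subunit (squares) genes, short bars for their medians, a grey box for the middle 50% of all 13946 genes and a dark line for their median. At 20 s against 0 s the points lie around 0, and in both comparisons of 60 s most of them lie below 0, with medians of -0.07 and -0.09 against 0 s.

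The lowest ratios of 60 s against 0 s belonged to genes of both subunits. RPL27a AT1G70600, located at chr1:26620923-26621659 in the TAIR9 coordinates of the table, had -0.20, which is -13.2% in FPKM. RPL23aB had -0.20, which is -13%. RPS6 (AT4G31700), the target of the S6 kinases, had -0.19, with 343, 331 and 301 FPKM, and its sister copy AT5G10360 had -0.07, with 274, 270 and 261 FPKM. PGY2 had -0.18 and RPL10B had -0.17. Against 20 s the lowest were PGY2 (-0.20), RPS18A (-0.15), RPS4 AT5G58420 (-0.15, with 145, 145 and 130 FPKM), RPL6 AT1G18540 (-0.14, with 318, 314 and 285 FPKM) and RPS6 AT4G31700 (-0.14).

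The 6 members that were higher at 60 s than at 0 s all came from families with another copy on the list, which hold 33 of the 51 members. RPS9 AT5G39850 had 0.09 and the RPS28 copy AT3G10090 had 0.08. RPS18C (AT4G09800), with 255, 254 and 260 FPKM, and RPL6 AT1G74060, with 145, 149 and 147 FPKM, each had 0.02. RPS3a AT4G34670 had 0.01, with 235, 239 and 236 FPKM. The locus of RPS18C overlaps another listed gene, so its value is uncertain. All their sister copies on the list were lower at 60 s, with ratios between -0.15 and -0.04. Among them RPS3a AT3G04840 had -0.15 and RPS28 AT5G03850 had -0.14, the last with 325, 320 and 295 FPKM.

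Gene copies of a family were alike in sequence and often unlike in level. In all 14 families with more than 1 member the copies kept the same order of level at 0, 20 and 60 s. At 0 s the abundant RPS9 copy was 84.1 times the scarce one in FPKM, and the abundant RPL10 copy 29.8 times RPL10B. The next largest ratios were 3.73 in RPS28 and 3.36 in RPL23a, where RPL23aA (AT2G39460) had 387, 382 and 361 FPKM. RPL6 copies differed 2.19 times and RPS4 copies 1.98 times between highest and lowest. RPL18 and RPL9 copies were nearly equal, at 1.07 and 1.08 times. They came as close as 1.01 times, RPL18 at 20 s and RPL9 at 60 s, so the kept order of these copies means little. RPL5, which carries the 5S ribosomal RNA into the large subunit, had 412, 414 and 389 FPKM from AT3G25520 and 297, 292 and 276 FPKM from RPL5B (AT5G39740). RPS21 had 292, 289 and 270 FPKM from AT3G53890 and 229, 229 and 216 FPKM from AT5G27700.

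The coding sequences of 24 copy pairs within these families were 80.4% to 99.1% identical in RefSeq, with a median of 87.65%, and 5 pairs encode the same protein. The 3 RPS18 genes are such a set. Their first 60 coding bases are shown from the start codon to make plain how reads of copies with the same protein can still differ, with capitals at the 12 positions where the genes are not all alike.
RPS18A AT1G22780: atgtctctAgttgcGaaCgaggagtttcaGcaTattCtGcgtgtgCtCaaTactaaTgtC
RPS18B AT1G34030: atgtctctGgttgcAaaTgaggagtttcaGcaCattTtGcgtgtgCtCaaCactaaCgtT
RPS18C AT4G09800: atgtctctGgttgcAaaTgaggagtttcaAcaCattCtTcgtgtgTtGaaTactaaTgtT
RPS18B had 154, 151 and 143 FPKM, which put it below RPS18A and RPS18C at each exposure. The longest run of bases shared by the transcripts of a pair, untranslated regions included, was 36.5 in the median. In the RPL9 pair it was 565 bases, and their coding sequences of 585 bases were 99.1% identical. The division of reads between AT1G33120 and PGY2 is therefore uncertain. Where in the transcripts the run lies was not recorded. Taken over the whole RPL9 family, the sum was 228, 228 and 211 FPKM.

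Sums over whole families, which depend less on how reads were divided among copies, were on the same side as the single genes. They include copies that were not on the list of 51. All 32 family sums were lower at 60 s than at 0 s, with log2 ratios from -0.19 to -0.01 and a median of -0.08. At 20 s 19 sums were lower and 13 higher than at 0 s, between -0.10 and 0.06. Against 20 s, 31 of the 32 sums were lower at 60 s. The RPL27a family was lowest at 60 s against 0 s, with 771, 719 and 674 FPKM. RPS6 followed at -0.14, with 617, 601 and 562 FPKM.

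The members had shorter transcripts than other genes, with a median of 1077 bases against 1683 over 13731 protein-coding genes, and a median coding length of 624 against 1140. Their median GC content was 42.3%, against 41.6%. Over the 51 members the ratios followed neither level, transcript length nor GC content closely: Spearman correlations lay between -0.24 and 0.09 in the 3 comparisons. The genes are spread over all chromosomes, with 14, 9, 11, 5 and 12 members on chromosomes 1 to 5. Only the RPL6 genes AT1G74050 and AT1G74060 are close neighbours, 1026 bases apart. Their ratios of 60 s against 0 s were -0.04 and 0.02.

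The remaining cytosolic ribosomal protein genes resembled the members at 60 s. Of 179 other loci 161 averaged 5 FPKM or more. Of these 133 (82.6%) were lower at 60 s than at 0 s, with a median of -0.07, against 45.4% of all genes. At 20 s 84 were higher and 77 (47.8%) lower, with a median of 0.01, against 51.5% of all genes lower. The levels went down in the order 0, 20 and 60 s in 66 (41%), against 60.8% of the members and 15.4% of all genes. The 20 s value was the highest in 78 (48.4%), against 33.3% of the members and 27.1% of all genes. Of the promoter windows of the 179 loci, 54.2% held a telo-box and 77.1% site II, against 7.82% and 28.1% of the 13729 windows. The widest difference was in the RPL41 gene AT2G40205, whose 1210, 677 and 1060 FPKM gave -0.84 at 20 s. RPL41 encodes one of the smallest known proteins, and FPKM of very short transcripts is uncertain. At 60 s the lowest were the RPS27a gene AT1G23410, a ubiquitin fusion, at -0.49 (12.1, 11.6 and 8.3 FPKM) and the RPL27 gene AT2G32220 at -0.41 (10.1, 8.71 and 7.37 FPKM). At 20 s RPL3B (AT1G61580) had -0.20, with 16.8, 14.5 and 15.1 FPKM, and the RPL29 gene AT3G06680 (62.3, 68.4 and 66.2 FPKM) and the RPL13a gene AT4G13170 (55, 60.1 and 55.5 FPKM) each had 0.13. The RPL7 gene AT3G13580 was on the higher side at 60 s, at 0.13, with 61.7, 64.1 and 67.8 FPKM.

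Nuclear genes of the plastid ribosome followed another order than the cytosolic members. Of 33 genes 30 (90.9%) were lower at 20 s than at 0 s, with a median of -0.06. At 60 s 29 (87.9%) were lower than at 0 s, with a median of -0.04. Of all genes 51.5% and 45.4% were lower. Between 20 and 60 s 20 (60.6%) were higher and 13 lower, near the 57.6% of all genes that were higher. The median was 0.02, as over all genes, where the cytosolic members had -0.07. The test of that difference could not be made with 1 value per exposure. The plastid-specific protein gene PSRP3/1 (AT1G68590) was lowest in both, with 525, 481 and 473 FPKM, and the stalk protein gene RPL12-A (AT3G27830) was highest, with 421, 441 and 453 FPKM. The ribosomal stalk base gene EMB3136 (PRPL10) had -0.11 at 20 s, with 335, 310 and 323 FPKM, and PRPL35 had -0.10 at 60 s, with 439, 429 and 409 FPKM. EMB3126 (PRPL1) was on the higher side in both, with 353, 362 and 371 FPKM. Telo-boxes stood in 15.2% of their promoter windows and site II in 45.5%.

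Genes that act with the ribosome were mostly lower too. Of 30 translation factor genes 21 (70%) were lower at 20 s (median -0.04) and 23 (76.7%) at 60 s (median -0.05), against 51.5% and 45.4% of all genes. EIF4E, which binds the mRNA cap, had 65.3, 59.9 and 53.3 FPKM and a ratio of -0.29 at 60 s. EIF4A-2, an RNA helicase of the same initiation complex, had 81.2, 71.7 and 69.1 FPKM (-0.18 at 20 s and -0.23 at 60 s). The elongation factor gene AT5G12110 (eEF1Balpha) had 11, 9.58 and 11.2 FPKM (-0.18 at 20 s). ELF5A-3, which helps elongation past difficult peptides, was the highest, with 92.3, 98.7 and 104 FPKM (0.10 at 20 s and 0.18 at 60 s). EIF3G1, of the initiation factor that binds the small subunit, had 68.5, 71.5 and 66.4 FPKM (0.06 at 20 s), and the elongation factor gene eEF-1Bb1 had 344, 343 and 363 FPKM (0.08 at 60 s).

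Of 20 ribosome biogenesis and TOR genes averaging 5 FPKM or more, 12 (60%) were lower at 20 s (median -0.01) and 15 (75%) at 60 s (median -0.10), against 51.5% and 45.4% of all genes. FIB2, a fibrillarin that methylates ribosomal RNA, had 26.9, 27.3 and 22.6 FPKM (-0.24 at 60 s), and its sister FIB1 had 127, 134 and 128 FPKM (0.07 at 20 s and 0.01 at 60 s). PUM24, a factor of ribosomal RNA processing, had 12.4, 10.7 and 11.1 FPKM (-0.20 at 20 s). S6K1 (PK1), a kinase of RPS6, had 48.6, 37 and 42.1 FPKM, which was -0.39 at 20 s and -0.20 at 60 s. The second S6 kinase gene, S6K2, had 6.1, 6.78 and 5.64 FPKM, which was 0.13 at 20 s, the highest of the list, and -0.10 at 60 s. RAPTOR1, the substrate-binding partner of TOR, was the highest at 60 s, with 19.6, 20.5 and 23.6 FPKM (0.26), followed by the 60S maturation factor gene REIL1 (AT4G31420) with 21.1, 22.1 and 25.1 FPKM (0.24).

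**Figure D4:**
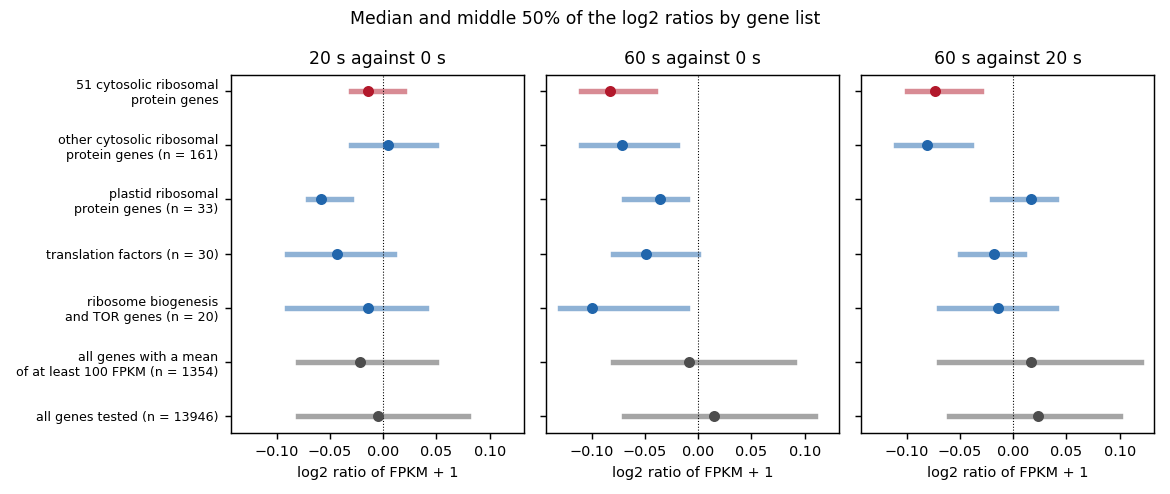
Median (points) and middle 50% (bars) of the log2 ratio of FPKM + 1 on the x axis in the 3 comparisons, for the 51 cytosolic ribosomal protein genes, the other gene lists, genes averaging 100 FPKM or more and all genes. Both cytosolic lists have medians of -0.08 and -0.07 at 60 s against 0 s, and the plastid list is lower at 20 s and not further down at 60 s.

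Other values of the table also differed between the exposures. The FPKM of all genes summed to 817000, 829701 and 858218 at 0, 20 and 60 s, and the members took 1.72%, 1.68% and 1.55% of it. The 7 markers of dividing and meristem cells, in which ribosomal protein genes are known to be most active, summed to 86.9, 94.3 and 84.7 FPKM, none of them listed at 0. Of the 5 that averaged 5 FPKM or more, 2 (40%) were lower at 60 s than at 0 s, against 45.4% of all genes. All 5 were higher at 20 s than at 0 s, against 48.5% of all genes. At 60 s 4 of the 5 (80%) were lower than at 20 s, against 42.4% of all genes. The root marker PYK10 had 51.1, 66.2 and 66.7 FPKM, while the root hair gene COBL9 was below 0.0131 FPKM at 0 and 60 s and at that value at 20 s. The 4 floral markers summed to at most 0.945 FPKM, so the defining floral genes were near 0 in these shoots. The part of the FPKM sum and of cell composition in the difference at 60 s was not tested.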

How the data were processed

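The authors deposited 1 table of FPKM values, with 1 value per gene and exposure. Per the labels' protocols, RNA of shoots was extracted with Trizol. The submitters' processing notes name TopHat, Bowtie, Cufflinks and the TAIR9 build. Tool versions, strand handling, how the 3 pools of an exposure were combined and any normalization between exposures were not given in the sources used here. Cufflinks estimates FPKM and divides reads that fit several copies, so values of near-identical genes are uncertain.

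Columns were matched to exposures by name, and 0 were left unmapped. A limma test on pools had been planned, but there are no values per pool, so ratios are log2((x + 1)/(y + 1)) without error, computed where the 3 exposures average 5 FPKM or more. Members and lists were chosen with earlier results of these data known. Any member could be named. Values per exposure were given for the 3 highest and 3 lowest of each subunit and for the 5 highest and 5 lowest ratios. They were also given for some copies of shared families and, outside this rule, for RPL4 AT3G09630. For other lists they were given for the 2 highest and 2 lowest ratios. Gene symbols and sequences came from RefSeq on TAIR10.1, matched by locus, which found all 51 members. Values of 4 members, and of 1 gene of another list, enter the counts, sums and medians but are not reported here by gene. Table starts were shifted by 1 to count from 1. The ratio step was tested on simulated data. Alternatives were other pseudocounts, minimum levels and scalings, and a restricted gene set. The software was Biopython 1.88, matplotlib 3.10.9, scipy 1.17.1, numpy 2.4.6 and pandas 2.3.3 under Python 3.11.15.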

Additional observations from a re-analysis of the deposited data

How the results depend on the processing

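The median member ratio stayed negative in all 3 comparisons under pseudocounts of 0.1 and 5 FPKM, no minimum level, a minimum of 50 FPKM, median centring, quantile normalization, the restriction to loci of at least 300 bp that overlap no other gene, and scaling to the same FPKM sum with and without the 50 highest genes, the last added after seeing the data. It ran from -0.04 to -0.01 for 20 s against 0 s, and from -0.12 to -0.07 for 60 s against 20 s. For 60 s against 0 s it was -0.11 to -0.08, except -0.15 when the columns were given the same FPKM sum, which lowers every 60 s value by construction since that column has the largest sum. For 20 s against 0 s the median over all genes was close to that of the members in some settings. It was -0.02 after quantile normalization, where the members had -0.01. With the same FPKM sum it was -0.03 (members -0.04), and with a minimum of 50 FPKM -0.01 (members -0.01). The negative sign at 20 s therefore does not set the members apart from all genes. With no replicate error, a move was called at 0.05 on the log2 scale. No paired analysis was possible because the table holds 1 value per exposure. Leaving out a pool in turn was not possible for the same reason. The promoter count was 30 with the shorter telo-box core too. Depth is unknown, so precision cannot be given for any gene, least of all for RPS9 AT5G39850 and RPL10B.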
